A study of Rattus norvegicus with 6 samples.

Results

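CD8 T cells, the T lymphocytes that carry the Cd8a and Cd8b co-receptor chains, were picked out of single-cell RNA sequencing of islet-enriched pancreatic tissue from 6 rats. A cell was counted as a CD8 T cell when it held at least 2 unique molecular identifiers (UMIs, each standing for 1 captured transcript) of Cd3e, Cd3d and Cd3g together and at least 1 of Cd8a and Cd8b together. It also had to hold no UMI of Cd4 or of the natural killer (NK) receptor gene Ncr1 and at most 1 of the macrophage genes C1qa, C1qb and C1qc. Of 75981 cells kept after quality filtering, 2480 (3.26%) met this rule. The cells were thus chosen by measured values, the UMIs of the genes named in the rule, so the levels of these genes describe the choice and are not results.

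The study compared male Wistar rats in 3 groups of 2. The young group was 2 months old, with 0 months of feeding on a normal diet. The old group was fed the normal diet until 20 months of age, and the HFHF-old group a high-fat, high-fructose (HFHF) diet over the same 18 months. Islets were freed by injecting collagenase through the bile duct, enriched on a density gradient and dissociated, so that shares of cells refer to this preparation and not to the whole pancreas. The numbers of CD8 T cells were 113 and 35 in the young, 365 and 1056 in the old and 64 and 847 in the HFHF-old rats. With 2 rats per group, an exact permutation test could not give a p-value under 0.333.

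CD8 T cells read peptides presented on MHC class I through the T cell receptor. Activated cells kill with perforin and granzymes released from granules, and recruit other leukocytes with chemokines such as those encoded by Ccl3, Ccl4, Ccl5 and Xcl1. Cells that settle in tissues carry the integrins encoded by Itgae and Itga1, whereas naive cells circulate through lymph nodes with Ccr7 and depend on the transcription factors Lef1 and Tcf7. In the pancreas, CD8 T cells are best known for attacking beta cells in autoimmune diabetes. In rats, many NK cells also carry Cd8a, and Cd4 is also made by macrophages and by some dendritic cells.

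The label was checked against Themis, a T cell signalling gene that the rule did not read. In CD8 T cells Themis stood at 519.8 and 223 CPM in the young, 1006 and 272 CPM in the old and 901 and 635 CPM in the HFHF-old rats, where CPM is the number of UMIs of a gene per 1000000 UMIs summed over the cells of that kind in that rat. The same gene stood at 0 to 1.94 CPM in NK cells (no Cd3 UMI, at least 1 of Ncr1, 9919 cells) and at 0 to 1.08 CPM in B cells (at least 2 of Cd79b, 415 cells). A UMI of Trbc2, a constant region gene of the T cell receptor beta chain, was found in 55.1% to 89.3% of CD8 T cells, 49.3% to 81.9% of NK cells and 0% to 2.94% of B cells over the 6 rats. Trbc2 thus did not separate CD8 T cells from NK cells, whereas Themis did in the sums per rat. In young replicate 2, however, Themis stood at 69.1 CPM in the 22 CD8 T cells without a Cd8b UMI. It stood at 363 CPM in the 13 cells of that rat with one. This check was made against NK and B cells, so it speaks for T cells and not for CD8 T cells alone. Of the variable genes of the receptor examined (Trbv1, Trbv16 and Trav12-3), Trbv1 was read most, in 2.36% of the CD8 T cells of HFHF-old replicate 2 (20 of 847) and in at most 2 CD8 T cells of any other rat.

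Of the 6035 cells with at least 2 Cd3 UMIs, the 2480 CD8 T cells stood beside 329 CD4 T cells (Cd4 without Cd8), 465 cells with both co-receptors and 1115 with neither. The other 1646 carried Ncr1 or macrophage C1q transcripts, 269 of them Ncr1 together with a Cd8 UMI. Both Cd8a and Cd8b were read in 1406 CD8 T cells, Cd8a alone in 1001 and Cd8b alone in 73. The percentage with a Cd8b UMI was 62.8% and 37.1% in the young, 66.3% and 42.5% in the old and 70.3% and 77.8% in the HFHF-old rats. The lowest shares were those of young replicate 2 and of old replicate 2, whose CD8 T cells had a median of 3079.5 UMIs against 5842 to 7947 in the other rats.

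Cells just inside and just outside the rule were compared without a test. With 1 Cd3 UMI (154 cells, outside) the median over rats of Themis was 222 CPM and that of the NK gene Tyrobp 756 CPM, with 2 Cd3 UMIs (133 cells, inside) they were 315 and 898 CPM, and with 3 or more (2347 cells) 582 and 91.2 CPM. With no Cd8 UMI the medians were 153 CPM for Themis and 390 CPM for the chemokine gene Ccl5 (1115 cells, outside), with 1 Cd8 UMI 254 and 2562 CPM (259 cells) and with 2 or more 594 and 3989 CPM (2221 cells). Themis was thus highest farthest inside both limits.

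The 6 libraries held 77387928 to 166875258 UMIs, of which CD8 T cells contributed 304620 to 7309995. Transcripts of other cell types were spread unevenly over the rats. In young replicate 2, 24 of the 35 CD8 T cells (68.6%) held at least 3 UMIs of Tyrobp, Fcer1g and Klrb1a together, genes of NK and other innate cells, against 6.85% to 22.1% in the other 5 rats. Over the 10 NK marker genes the summed level in CD8 T cells was 2607 CPM there and 186 to 502 CPM elsewhere. In that rat Tyrobp stood at 2253 CPM in CD8 T cells without a Cd8b UMI and at 12.5 CPM in those with one. In old replicate 2 the 14 genes of pancreatic secretory cells summed to 86890 CPM, against 1402 to 19240 CPM in the other rats, and 48 of the 58 CD8 T cells with over 5% of their UMIs from secretory genes were in that rat. B cell markers summed to 70.9 to 320.8 CPM, macrophage markers to 31.3 to 264 CPM and stromal markers to 126 to 1739 CPM, the last highest in both young rats. CD8 T cells with at least 2 UMIs of B cell or macrophage marker genes (marker doublets) were 7 of 113 and 2 of 35 in the young. They were 66 of 365 and 77 of 1056 in the old rats, and 13 of 64 and 4 of 847 in the HFHF-old rats. Between pairs of libraries, 20 to 69 cell barcodes were shared (at most 0.604% of the smaller library), among them 1 barcode of a CD8 T cell in both.

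CD8 T cells made up a larger share of the cells in both old rats than in either young rat. They were 0.646% and 0.339% of the cells kept in the young rats (exact 95% binomial intervals 0.532 to 0.776 and 0.236 to 0.471) and 4.88% and 6.43% in the old rats (4.40 to 5.39 and 6.06 to 6.82). The mean was 5.66% ± 1.10 in the old and 0.492% ± 0.217 in the young group (SD, n = 2 each), a ratio of 11.5 and a difference of 5.16 percentage points without overlap. The two-sided exact permutation test gave p = 0.333, the smallest value that 2 rats against 2 allow. In the HFHF-old group the rats stood at 0.512% (0.394 to 0.653) and 7.22% (6.75 to 7.70), below and above both old rats. The mean was 3.86% ± 4.74 (SD, n = 2), a difference of -1.79 points from the old group (exact permutation p = 1), and without HFHF-old replicate 1 the difference turned to 1.56 points. The median depth of the cells kept ran from 2547 to 9824 UMIs per rat. When each cell was thinned to 1000 UMIs, with 297 to 4085 shallower cells per rat left out and at least 1 Cd3 UMI required, the shares were 0.391% and 0.174% in the young, 4.85% and 6.15% in the old and 0.646% and 4.43% in the HFHF-old rats. Both HFHF-old rats then lay below both old rats, with a difference of -2.96 points (exact permutation p = 0.333), and the ratio of old to young was 19.5. The limits on Cd4, Ncr1 and C1q were also read on the thinned counts, so cells that the full counts exclude could enter. HFHF-old replicate 1 had 72 CD8 T cells in this setting in place of 64. These changes were made together, and the part of each was not tested. Without the cells that carried innate transcripts the share of young replicate 2 fell to 0.107% (11 cells) and the ratio of old to young was 16.8. These intervals cover counting error only, and a library holds all cells caught in 1 preparation, so the share also falls when other cells are more numerous.

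**Figure D1:**
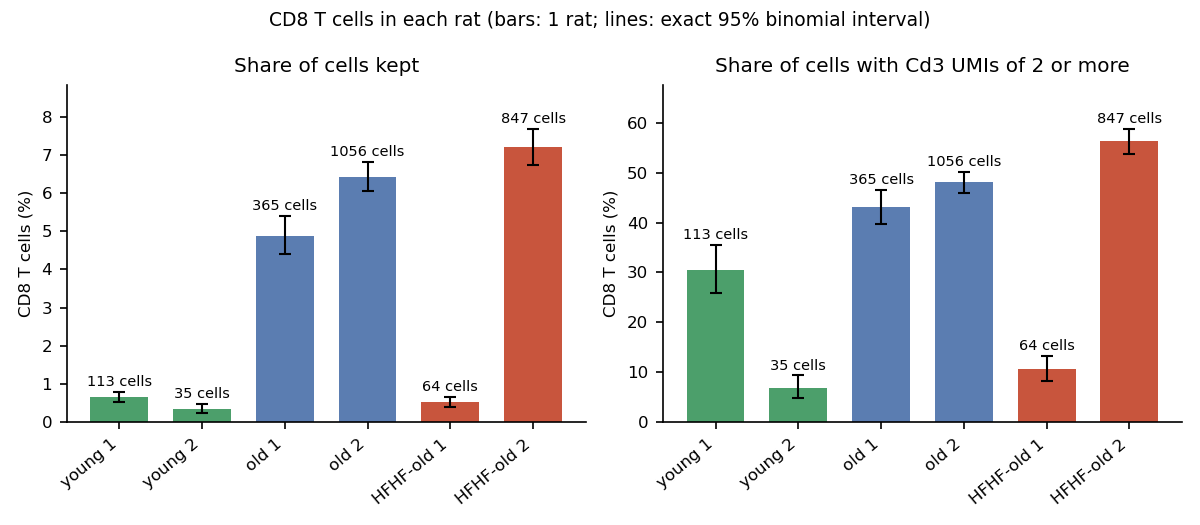
CD8 T cells as a percent of the cells kept and of the cells with at least 2 Cd3 UMIs, 1 bar per rat, with exact 95% binomial intervals that cover counting error only. Both old rats lie above both young rats on either scale. The 2 HFHF-old rats lie at 0.512% and 7.22% of the cells kept, below and above the old rats. With each cell thinned to 1000 UMIs they lie at 0.646% and 4.43%, both below (not drawn). The rule is then read on the thinned counts with at least 1 Cd3 UMI.

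CD8 T cells were 30.5% and 6.80% of the cells with at least 2 Cd3 UMIs in the young, 43.1% and 48.1% in the old and 10.5% and 56.4% in the HFHF-old rats. The old group stood 27.0 points above the young (45.6% ± 3.51 against 18.7% ± 16.8, SD, n = 2 each, exact permutation p = 0.333), and the HFHF-old group at 33.5% ± 32.4 (p = 1 against old, exact permutation test). With thinned cells HFHF-old replicate 2 stood at 43.7%, between the old rats at 50.6% and 41.3%, and the ratio of old to young was 3.60 in place of 2.44. Without the cells that carried innate transcripts young replicate 2 stood at 2.14%. Many of the Cd3 cells carried Ncr1 or more than 1 C1q UMI, which the rule leaves out. They were 128 of 370 and 340 of 515 in the young rats. In the old rats they were 251 of 846 and 269 of 2195, and in the HFHF-old rats 449 of 607 and 209 of 1502. The CD8 T cells of HFHF-old replicate 1 were thus 64 of the 158 other Cd3 cells, and those of young replicate 2 were 35 of 175. There were 4.71 and 2.33 CD8 T cells per CD4 T cell in the young, 11.4 and 8.8 in the old and 2.46 and 7.56 in the HFHF-old rats. These ratios rest on few CD4 T cells, and without the cells that carried transcripts of dendritic and B cells (Tcf4, Blnk and Cybb) young replicate 2 had 32 CD8 T and 5 CD4 T cells in place of 35 and 15. The number of NK cells caught was 1155 and 370, 526 and 757, and 261 and 6850 in the same order, so that the HFHF-old rat rich in CD8 T cells was also rich in NK cells. When a Cd8b UMI was required, the difference between HFHF-old and old rats was 0.00195 points of the cells kept and 1.11 points of the Cd3 cells, with overlap in both.

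Gene levels of CD8 T cells were first set against CD4 T cells of the same rat, from sums of UMIs per rat with the rat as a block. A gene was called when its adjusted p (edgeR, Benjamini-Hochberg over all genes tested) was under 0.05 and its fold change over 1.5. Of 6512 genes tested, 445 (6.83%) were called and 1375 (21.1%) had an unadjusted p under 0.05, 613 (9.41%) of them higher. Of the genes called, 173 (2.66%) were called higher and 272 (4.18%) lower in CD8 T cells, both as a percent of the genes tested, and 14.8% of all genes lay on one side in all 6 rats. Killing, chemokine and residence genes were among the higher genes, and costimulation and regulatory genes among the lower. The CD4 set rests on 15 to 120 cells per rat, and 66 of its 329 cells held at least 3 UMIs of Tcf4, Blnk and Cybb, genes of dendritic and B cells, against 72 of the 2480 CD8 T cells. Without these cells 123 genes were called higher and 110 lower. Without young replicate 1, old replicate 1 or old replicate 2 the genes called numbered 261, 208 and 282.

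Of the 17 genes listed for effector cytokines and chemokines 8 were tested. Of these, 7 were called higher and none lower, with a median log2 fold change of 2.68 beside 0.02 over all genes. A gene low in CD4 T cells could pass the low-count filter only through its CD8 T sums. The counts of listed genes called higher are thus partly set by the filter and are a description. Ccl5, a chemokine that draws T cells and monocytes, stood at 7183 and 3923 CPM in the young, 4091 and 3955 CPM in the old and 1993 and 2782 CPM in the HFHF-old rats in CD8 T cells and at 20.7 to 484 CPM in CD4 T cells (log2 fold change 4.50, standard error 0.51, adjusted p = 6.90e-04). The lowest CD8 T value was thus above the highest CD4 T value. In young replicate 2 Ccl5 stood at 6891 CPM in the 22 cells without a Cd8b UMI, which held most of the innate transcripts, and at 1238 CPM in the 13 with one. Ccl4 stood at 2259 and 141 CPM in the young, 1439 and 676 CPM in the old and 1674 and 2810 CPM in the HFHF-old rats (log2 fold change 4.33, standard error 0.48, adjusted p = 6.49e-04), and Ccl3 at 819 and 42.7 CPM in the young, 1166 and 672 CPM in the old and 906 and 1780 CPM in the HFHF-old rats (log2 fold change 3.98, standard error 0.44, adjusted p = 6.49e-04). Both were lowest in young replicate 2 and were higher than in CD4 T cells in every rat. Xcl1, whose product attracts cross-presenting dendritic cells, stood at 501, 565, 649, 373, 341 and 838 CPM in the 6 rats (young, old, HFHF-old) against 20.7, 92.2, 31.2, 41.8, 55.1 and 97.3 CPM in CD4 T cells (log2 fold change 3.40, standard error 0.25, adjusted p = 8.67e-05). Xcl1 varied less among rats than the other chemokines. The remaining genes called were Ifng (log2 fold change 1.75), Il2 (1.96) and Tnfsf10 (1.25), which encode interferon gamma, interleukin 2 and the death ligand TRAIL. Il2 was higher in 5 of 6 rats, young replicate 2 being the exception. Ifng lost its call in 4 of 18 alternatives (adjusted p up to 0.138), Il2 in 3 of 14 (up to 0.0881) and Tnfsf10 in 2 of 18 (up to 0.198). Cd40lg, the helper ligand for B cells, was not called, with a log2 fold change of -0.81 (adjusted p = 0.177).

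Of the 17 cytotoxic granule and killing genes listed 12 were tested, with the same limit of the filter. Of these, 6 were called higher and none lower (median log2 fold change 1.34). Gzma, a granzyme, stood at 117 and 1920 CPM in the young, 3.60 and 32.2 CPM in the old and 19.3 and 56.1 CPM in the HFHF-old rats in CD8 T cells and at 0 to 154 CPM in CD4 T cells (log2 fold change 4.05, standard error 0.29, adjusted p = 8.67e-05). It was highest by far in young replicate 2. Gzma had a result in only 10 of 18 alternatives, and it lost its call in 1 of them, the edgeR fit without the rat as a block (adjusted p = 0.198). Prf1, which encodes perforin, stood at 100.2 and 42.7 CPM in the young, 57.7 and 78.4 CPM in the old and 121 and 87.8 CPM in the HFHF-old rats against 4.18 to 40.1 CPM in CD4 T cells (log2 fold change 2.44, standard error 0.32, adjusted p = 0.00172). Its levels in CD8 T cells did not overlap those in CD4 T cells. Nkg7, a granule membrane gene, stood at 370.2, 509, 116, 291, 167 and 329 CPM against 4.14, 103, 2.84, 12.6, 10.0 and 37.3 CPM (log2 fold change 3.75, standard error 0.36, adjusted p = 3.10e-04), and Ctsw, a protease of killer cells, at 709, 659.8, 893, 1014, 812 and 879 CPM against 133, 138, 233, 429.6, 286 and 318 CPM (log2 fold change 1.84, standard error 0.17, adjusted p = 2.74e-04). Both were higher in all 6 rats. Gzmk and Gzmm were also called, with log2 fold changes of 2.38 and 3.16, but Gzmk lost its call in 9 of 18 alternatives (adjusted p up to 0.142) and Gzmm in 7 (up to 0.101). Without young replicate 2, and likewise without the cells that carried innate or dendritic transcripts, 3 genes of this list were called.

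Of the 16 killer lectin-like receptors listed 8 were tested, with the same limit of the filter. Of these, 7 were called higher (median log2 fold change 2.24). Klrb1a, one of the innate genes high in young replicate 2, lost its call in 8 of 18 alternatives (adjusted p up to 0.188) and Clec2d2 in 4 (up to 0.208). Klrd1, the CD94 chain that pairs with NKG2 receptors, stood at 191 and 538 CPM in the young, 90.1 and 281 CPM in the old and 111 and 191 CPM in the HFHF-old rats against 5.68 to 108 CPM in CD4 T cells (log2 fold change 3.28, standard error 0.25, adjusted p = 9.31e-05). Klrk1, the activating receptor NKG2D, stood at 259 and 177 CPM in the young, 182 and 128 CPM in the old and 338 and 255 CPM in the HFHF-old rats against 5.68 to 112 CPM (log2 fold change 2.09, standard error 0.34, adjusted p = 0.00567). Both were higher in every rat. Klrb1c had a log2 fold change of 4.32 and Ly49s6, a receptor of the Ly49 family that is not on the list, of 5.42. Klra2, another killer lectin-like receptor outside the list, went the other way and was called lower (given below). Members of these families resemble one another in sequence, so that reads may be split among them, as may those of Vom2r37 (2.17) and Art2b (2.55). Cd96, a receptor for nectin-family ligands, stood at 297, 584, 683, 415, 524 and 516 CPM against 120.1, 195, 128, 156, 145 and 147 CPM (log2 fold change 1.81, standard error 0.15, adjusted p = 1.41e-04), and Gnpda2, an enzyme of amino sugar metabolism, at 101, 78.8, 235, 151, 123 and 126 CPM against 45.6, 30.7, 79.5, 69.7, 45.1 and 59.0 CPM (log2 fold change 1.34, standard error 0.13, adjusted p = 3.59e-04). These 2 differences were modest in size and of one direction in all rats.

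Promoters of 4 of the 10 highest-ranked genes are shown here because TGTGGT, the core that RUNX factors bind, occurs in each on one strand or the other. They are the 250 bases before the annotated start in RefSeq (GRCr8), read 5′ to 3′ along the gene, with the matching letters in capitals (a match on the opposite strand reads as the reverse complement). The motif was found in 5 of the 8 promoters held for the 10 genes (62.5%), in 16.8% of 131 promoters of genes called higher, in 12% of 217 of genes called lower, in 10.7% of 5062 of genes tested and in 14.5% of all 33469. Both strands were searched, and in Cd96 the motif occurs on both. A match is a description of letters and not a binding site.
Gzma (chr2:46485697-46485946, minus strand): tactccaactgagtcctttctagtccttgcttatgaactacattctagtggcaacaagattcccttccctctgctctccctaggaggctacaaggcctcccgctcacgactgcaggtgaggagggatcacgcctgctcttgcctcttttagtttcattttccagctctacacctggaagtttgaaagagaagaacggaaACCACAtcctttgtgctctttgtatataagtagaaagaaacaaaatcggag
Xcl1 (chr13:79785441-79785690, minus strand): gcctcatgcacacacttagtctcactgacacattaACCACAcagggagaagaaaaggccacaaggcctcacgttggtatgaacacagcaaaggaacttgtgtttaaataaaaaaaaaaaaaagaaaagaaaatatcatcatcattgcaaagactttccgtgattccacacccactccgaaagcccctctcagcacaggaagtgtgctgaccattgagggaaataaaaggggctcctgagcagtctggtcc
Cd96 (chr11:68164676-68164925, plus strand): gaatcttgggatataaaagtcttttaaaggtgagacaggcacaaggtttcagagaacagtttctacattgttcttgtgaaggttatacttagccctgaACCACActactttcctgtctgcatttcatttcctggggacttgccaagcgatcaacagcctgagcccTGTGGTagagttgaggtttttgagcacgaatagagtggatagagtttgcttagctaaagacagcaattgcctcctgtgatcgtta
Nkg7 (chr1:102981247-102981496, plus strand): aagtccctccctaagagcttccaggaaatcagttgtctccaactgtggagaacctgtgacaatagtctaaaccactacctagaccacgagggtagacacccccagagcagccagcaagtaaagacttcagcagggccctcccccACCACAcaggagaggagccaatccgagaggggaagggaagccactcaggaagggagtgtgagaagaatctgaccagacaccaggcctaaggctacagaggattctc
The match lies 51 bases before the start in Gzma, 215 in Xcl1, 106 in Nkg7 and 152 and 85 in Cd96. Runx3 itself, a RUNX factor of CD8 T cells, stood at 95.1, 105, 123, 62.4, 126 and 146 CPM in CD8 T cells and 153, 97.3, 116, 83.7, 60.2 and 58.0 CPM in CD4 T cells, higher in 4 of 6 rats and not called (log2 fold change 0.31, adjusted p = 0.537). The T-box letters TCACACC, the AP-1 letters TGACTCA, the NF-kB motif and the CRE letters TGACGTCA were searched in the same way and were in none of the 8 promoters. They occur in 3.22%, 4.05%, 0.0956% and 1.59% of all promoters.

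Of the tissue residence genes, 4 of 13 tested were called higher and none lower (median log2 fold change 0.76). Itgae, the CD103 chain that binds E-cadherin on epithelium, stood at 134 and 219.9 CPM in the young, 315 and 153 CPM in the old and 283 and 282 CPM in the HFHF-old rats against 8.28 to 92.2 CPM in CD4 T cells (log2 fold change 2.31, standard error 0.29, adjusted p = 0.00128). Itga1, the CD49a chain that binds collagen, stood at 156 and 217 CPM in the young, 159 and 165 CPM in the old and 254 and 327 CPM in the HFHF-old rats against 16.6 to 108 CPM (log2 fold change 1.42, standard error 0.24, adjusted p = 0.00672). Both were higher in all 6 rats, and Itga1 was not called without the cells that carried innate transcripts (adjusted p = 0.11) or without marker doublets. Cxcr6, a chemokine receptor of tissue lymphocytes, and the transcription factor Ahr were also called, with log2 fold changes of 1.71 and 0.76, Ahr not in 4 of 18 alternatives (adjusted p up to 0.301). Of the T cell receptor signalling genes, 4 of 19 were called higher and Cd28 lower, the higher ones being Themis (1.19), Cd27 (1.18), Zap70 (0.93) and Grap2 (0.73). Themis was higher in 5 of 6 rats and lower in old replicate 2. Themis, Zap70 and Grap2 each lost their call in 10 of 18 alternatives (adjusted p up to 0.277, 0.534 and 0.427), among them the fit without the rat as a block, and Cd27 in 3 (up to 0.128). Of 16 transcription factors 7 were positive (median -0.06), with Tbx21 (1.36), Ikzf3 (1.10) and Id2 (0.70) called higher and 2 others called lower. Ikzf3 and Id2 each lost their call in 9 of 18 alternatives (adjusted p up to 0.424 and 0.297) and Tbx21 in 3 (up to 0.225). Tbx21 encodes T-bet, which drives the interferon gamma program. Of 14 cytokine receptors tested, Il12rb2 (1.74) and Ifngr1 (0.60) were called higher, Ifngr1 not in 9 of 18 alternatives (adjusted p up to 0.513).

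Genes lower in CD8 T cells included regulators of costimulation. Ctla4, the inhibitory receptor for CD80 and CD86, stood at 31.7 and 3.28 CPM in the young, 3.93 and 10.1 CPM in the old and 19.3 and 27.1 CPM in the HFHF-old rats in CD8 T cells and at 265, 20.5, 93.7, 100.4, 471 and 281 CPM in CD4 T cells (log2 fold change -3.54, standard error 0.24, adjusted p = 8.67e-05). Cd28, the activating receptor for the same ligands, stood at 104 and 26.3 CPM in the young, 104 and 80.7 CPM in the old and 435 and 351 CPM in the HFHF-old rats against 224, 66.6, 273, 243, 1158 and 1067 CPM (log2 fold change -1.36, standard error 0.12, adjusted p = 2.62e-04). Both were lower in all 6 rats, and Cd28 was not called without the rat as a block (adjusted p = 0.342). Nrp1, a co-receptor found on regulatory T cells and dendritic cells, stood at 6.34 to 21.3 CPM against 70.2 to 203 CPM (log2 fold change -3.09, standard error 0.29, adjusted p = 2.74e-04). Il6r, the interleukin 6 receptor, stood at 9.85 to 63.7 CPM against 138 to 223 CPM (log2 fold change -2.18, standard error 0.22, adjusted p = 3.59e-04). For these 2 genes the levels of the kinds of cell did not overlap.

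The transcription factor Tcf4, of dendritic and B cells, had a log2 fold change of -4.67, the kinase Syk of -2.77, Plcb4 of -3.47, Arhgap24 of -2.90, Klra2 of -4.26 and the cathepsin Ctsz of -2.95. Ctsz lost its call without the cells that carried dendritic transcripts (adjusted p = 0.973) and Tcf4 without those that carried innate transcripts (0.0616), and Irf8 turned from -2.93 to 0.15 without the former. Of 6 MHC class II genes tested, 4 were called lower (median log2 fold change -1.87), and without either kind of cell none was. Of 14 naive and circulating T cell genes, Foxp1 (-0.88), Bach2 (-1.01) and Il6r were called lower, and Itga6, an integrin chain, higher (0.78). Foxp1 and Itga6 lost their call in 9 and 10 of 18 alternatives (adjusted p up to 0.266 and 0.371) and Bach2 in 3 (up to 0.241).

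**Figure D2:**
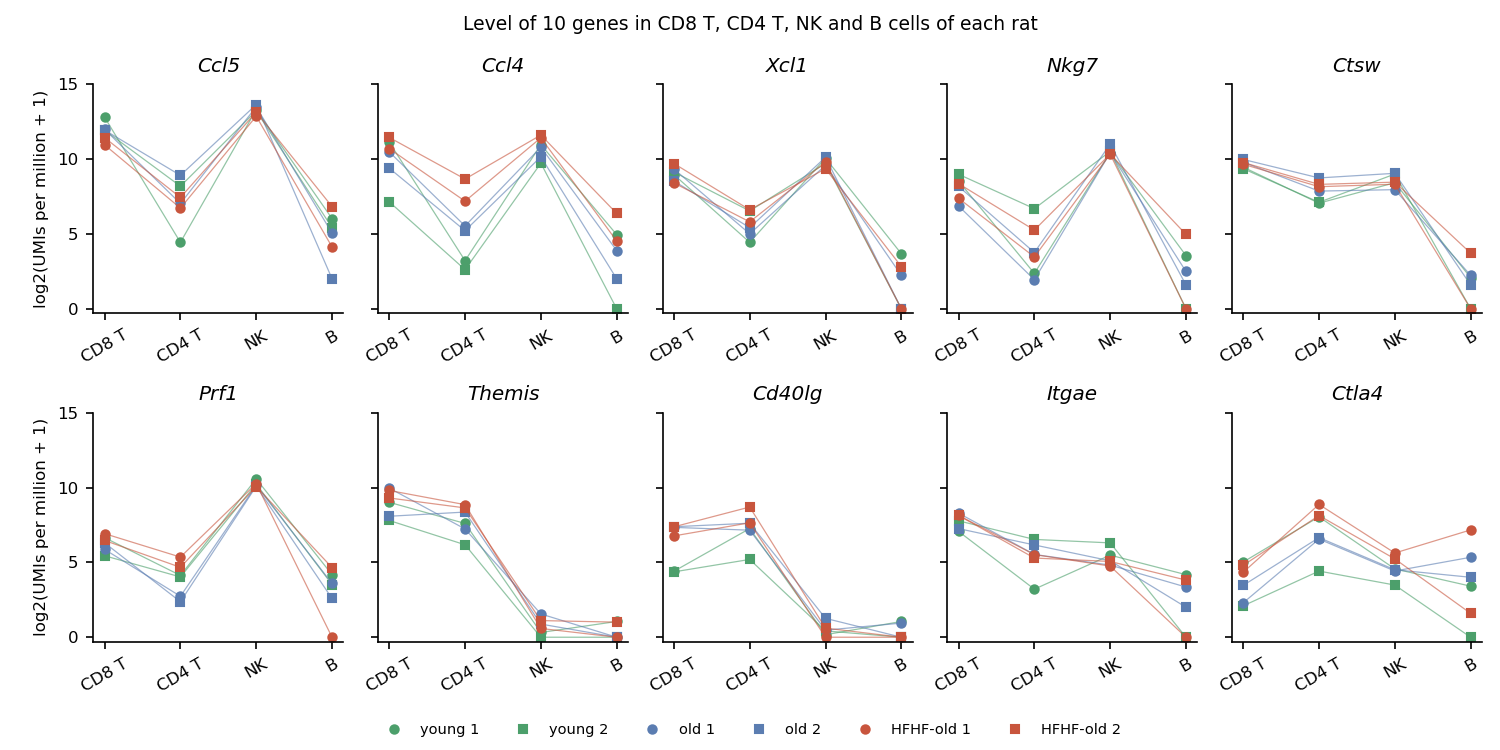
Levels of 10 genes (log2 of CPM + 1) in CD8 T, CD4 T, NK and B cells, 1 point per rat, colored by group, with circles for replicate 1, squares for replicate 2 and lines joining the same rat. Ccl5, Ccl4 and Xcl1 lie high in CD8 T and NK cells, Themis and Cd40lg in the T cells, and Ctla4 is higher in CD4 T (20.5 to 471 CPM) than in CD8 T cells of every rat.

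CD8 T cells were next set against NK cells of the same rat, which share many killing genes. Of 10604 genes tested, 665 (6.27%) were called higher and 801 (7.55%) lower in CD8 T cells, and 22.2% lay on one side in all 6 rats. Genes of T cell receptor signalling and inhibitory receptors were among the higher genes, and granule and killer receptor genes among the lower. The genes read by the rule are left out. The 10 genes of smallest p in each direction kept their direction and call in all 18 alternatives, among them the one without young replicate 2.

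Of the T cell receptor signalling genes, 10 of 19 tested were called higher and none lower (median log2 fold change 0.69 beside 0.00 over all genes). Themis had the highest fold change of the list (log2 fold change 9.40, standard error 0.26, adjusted p = 1.85e-07). Trat1, an adaptor of the receptor complex, stood at 86.2 and 13.1 CPM in the young, 197 and 167 CPM in the old and 176 and 164 CPM in the HFHF-old rats against 0.341 to 4.48 CPM in NK cells (log2 fold change 6.15, standard error 0.31, adjusted p = 5.95e-06). It was lowest in young replicate 2, and still above every NK level. The adaptors Lat and Grap2 had log2 fold changes of 1.58 and 2.42. Slamf6, a self-binding costimulatory receptor, stood at 181 and 55.8 CPM in the young, 243 and 162 CPM in the old and 369.6 and 436 CPM in the HFHF-old rats against 0.341 to 2.01 CPM (log2 fold change 7.84, standard error 0.25, adjusted p = 3.60e-07). Cd40lg stood at 20.3 and 19.7 CPM in the young, 162 and 167 CPM in the old and 109 and 166 CPM in the HFHF-old rats against 0 to 1.40 CPM (log2 fold change 8.09, standard error 0.26, adjusted p = 3.60e-07), so that NK cells were almost without it in every rat. Ccr9, the receptor that leads T cells to the small intestine, stood at 44.4 and 36.1 CPM in the young, 256 and 111 CPM in the old and 128 and 72.5 CPM in the HFHF-old rats against 0.582 to 4.51 CPM (log2 fold change 6.04, standard error 0.38, adjusted p = 2.70e-05). Itga4 and Itgb7, the chains of the gut homing integrin, had log2 fold changes of 2.23 and 2.43. Kcnn4, a potassium channel that sustains calcium entry, stood at 16.4 to 109 CPM against 1.36 to 2.35 CPM (4.76), and Slc2a3, a glucose transporter, at 36.1 to 116 CPM against 3.36 to 9.14 CPM (3.69). Gimap9, Hs3st3b1 and Atxn1 were higher by 4.68, 3.60 and 1.63 on the log2 scale. Of 12 genes for inhibitory receptors and Tox, 7 were called higher and none lower (median 1.25), among them Cd101 (2.40), Entpd1 (2.29) and Tox (1.18). Btla lost its call in 6 of 17 alternatives (adjusted p up to 0.832), Cd160 in 3 of 18 (up to 0.208), Tigit in 2 of 18 (up to 0.174), Havcr2 in 1 of 16 (0.0916) and Tox in 1 of 18 (0.0523).

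Of the cytotoxic granule and killing genes, 8 of 13 tested were called lower in CD8 T cells than in NK cells and 1 higher (median log2 fold change -1.70). Prf1 stood at 1543 and 1214 CPM in the young, 1146 and 1097 CPM in the old and 1239 and 1080 CPM in the HFHF-old rats in NK cells, above every CD8 T level given earlier (log2 fold change -3.88, standard error 0.17, adjusted p = 3.02e-06). Gzmm (-2.54), Nkg7 (-2.41) and Gzma (-3.60) were also called lower, Gzma in 5 of 6 rats with young replicate 2 the exception and not without the rat as a block (adjusted p = 0.721). Ctsw was the gene called higher (log2 fold change 1.19, standard error 0.16, adjusted p = 8.31e-04), with 709, 659.8, 893, 1014, 812 and 879 CPM in CD8 T against 344, 514, 249, 532, 320.4 and 353 CPM in NK cells. Of 12 killer lectin-like receptors, 10 were called lower and Clec2d2 higher (0.98, median of the list -2.64). Klrh1 lost its call in 7 of 16 alternatives (adjusted p up to 0.195), and Klrc3 and Clec2d2 in 1 of 18 (0.0564 and 0.144). Klrb1a, the NK receptor NKR-P1A, stood at 176 and 506 CPM in the young, 35.1 and 83.0 CPM in the old and 38.7 and 72.6 CPM in the HFHF-old rats against 1232 to 1623 CPM (log2 fold change -3.88, standard error 0.52, adjusted p = 8.65e-04), highest among CD8 T cells in young replicate 2. Ifng went the other way, at 132, 29.6, 228, 94.9, 130.4 and 265 CPM in CD8 T cells against 24.8, 2.05, 10.3, 5.04, 12.5 and 27.7 CPM in NK cells (log2 fold change 3.54, standard error 0.26, adjusted p = 4.55e-05). Thus CD8 T cells held more interferon gamma transcript and fewer granule transcripts than the NK cells of the same rat.

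Other genes lower in CD8 T cells were Cd24 (-5.81), the metalloproteinase Adamts14 (-5.39), Oplah, an enzyme of glutathione breakdown (-4.50), Hacd4 (-4.36), the lipid binding protein gene Osbpl11 (-3.73), Dgkh (-3.41), Plek (-3.28), Dhrs3 (-2.89) and the glycosyltransferase Mgat5 (-1.58). Plek stood at 29.6 to 54.6 CPM in CD8 T and 312 to 629 CPM in NK cells. The T-box factors Tbx21 (-1.13) and Eomes (-3.04) were also called lower, so that CD8 T cells lay between CD4 T and NK cells for Tbx21. Interleukin receptors differed in both directions, with Il7r (3.69) and Il2ra (2.34) called higher among 4 higher and 6 lower of 17 tested. Il10ra, among the lower, lost its call in 12 of 18 alternatives (adjusted p up to 0.335).

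Old and young rats were then compared within CD8 T cells, which concerns aging on a normal diet. No gene of 10228 tested was called by edgeR (smallest adjusted p = 0.119), 767 (7.50%) had an unadjusted p under 0.05, 3.59% above and 3.91% below the young level, and DESeq2 called 55. Levels did not overlap between the groups for 36.4% of all genes. The values below are given for the genes of smallest p and for the gene lists, and none of these genes was called by edgeR. The young group rests on 113 and 35 cells, and the rat with 35 cells carried the innate transcripts described earlier.

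Cd40lg had the smallest p. It stood at 20.3 and 19.7 CPM in the young, 162 and 167 CPM in the old and 109 and 166 CPM in the HFHF-old rats (log2 fold change 3.15, standard error 0.37, adjusted p = 0.119), so that both old and both HFHF-old rats lay above both young rats. In B cells it was at 0 to 1.08 CPM and in NK cells at 0 to 1.40 CPM. In CD4 T cells of the young rats it stood at 153 and 35.9 CPM and of the old rats at 142 and 197 CPM. Nr3c2, the mineralocorticoid receptor, stood at 12.7 and 9.85 CPM in the young, 141 and 65.9 CPM in the old and 164 and 144 CPM in the HFHF-old rats (log2 fold change 3.20, standard error 0.44, adjusted p = 0.119), and NK cells showed a like order (25.8, 19.8, 124, 96.0, 203 and 229 CPM). Il2ra, the alpha chain of the interleukin 2 receptor, stood at 191 and 138 CPM in the young, 1264 and 336 CPM in the old and 1261 and 991 CPM in the HFHF-old rats (log2 fold change 2.32, standard error 0.53, adjusted p = 0.371), with 0 to 25.8 CPM in B cells. Of the T cell receptor signalling genes 17 of 20 tested were positive (3 with unadjusted p under 0.05, median log2 fold change 0.34 beside 0.04 over all genes), Cd6 among them (1.14).

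All 7 chemokine receptors tested were positive (4 with unadjusted p under 0.05, median 0.85). Gpr183, which senses oxysterols, stood at 229.5 and 243 CPM in the young, 481 and 385 CPM in the old and 606 and 636 CPM in the HFHF-old rats (log2 fold change 0.98, standard error 0.24, adjusted p = 0.399), above the young levels in all 4 older rats. Ccr9 stood at 44.4 and 36.1 CPM in the young, 256 and 111 CPM in the old and 128 and 72.5 CPM in the HFHF-old rats (2.23), Il7r at 67.2 and 68.9 CPM in the young, 142 and 107 CPM in the old and 155 and 123 CPM in the HFHF-old rats (0.97) and Rgs1, which dampens chemokine receptor signalling, at 319.5 and 282 CPM in the young, 659 and 675 CPM in the old and 841 and 634 CPM in the HFHF-old rats (1.26). Lef1, a transcription factor of naive T cells, stood at 246 and 68.9 CPM in the young, 14.7 and 25.1 CPM in the old and 94.2 and 62.2 CPM in the HFHF-old rats (log2 fold change -2.89, standard error 0.58, adjusted p = 0.304). Young replicate 1 was highest and the old rats lowest. B cells held Lef1 at 41.9, 52.5, 3.70, 0, 55.3 and 19.2 CPM, lowest in the old rats as well. Over the 15 naive and circulating T cell genes tested, 6 were positive with a median of -0.16, and without young replicate 1 the median turned to 1.11 with 13 of 16 positive. Lag3, an inhibitory receptor, stood at 78.6 and 23.0 CPM in the young, 4.26 and 5.96 CPM in the old and 7.25 and 19.0 CPM in the HFHF-old rats (log2 fold change -3.26, standard error 0.62, adjusted p = 0.299), and Tox2 at 1.27 and 3.28 CPM in the young, 21.3 and 11.3 CPM in the old and 12.1 and 6.02 CPM in the HFHF-old rats (3.16). The young Tox2 levels rest on very few UMIs.

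**Figure D3:**
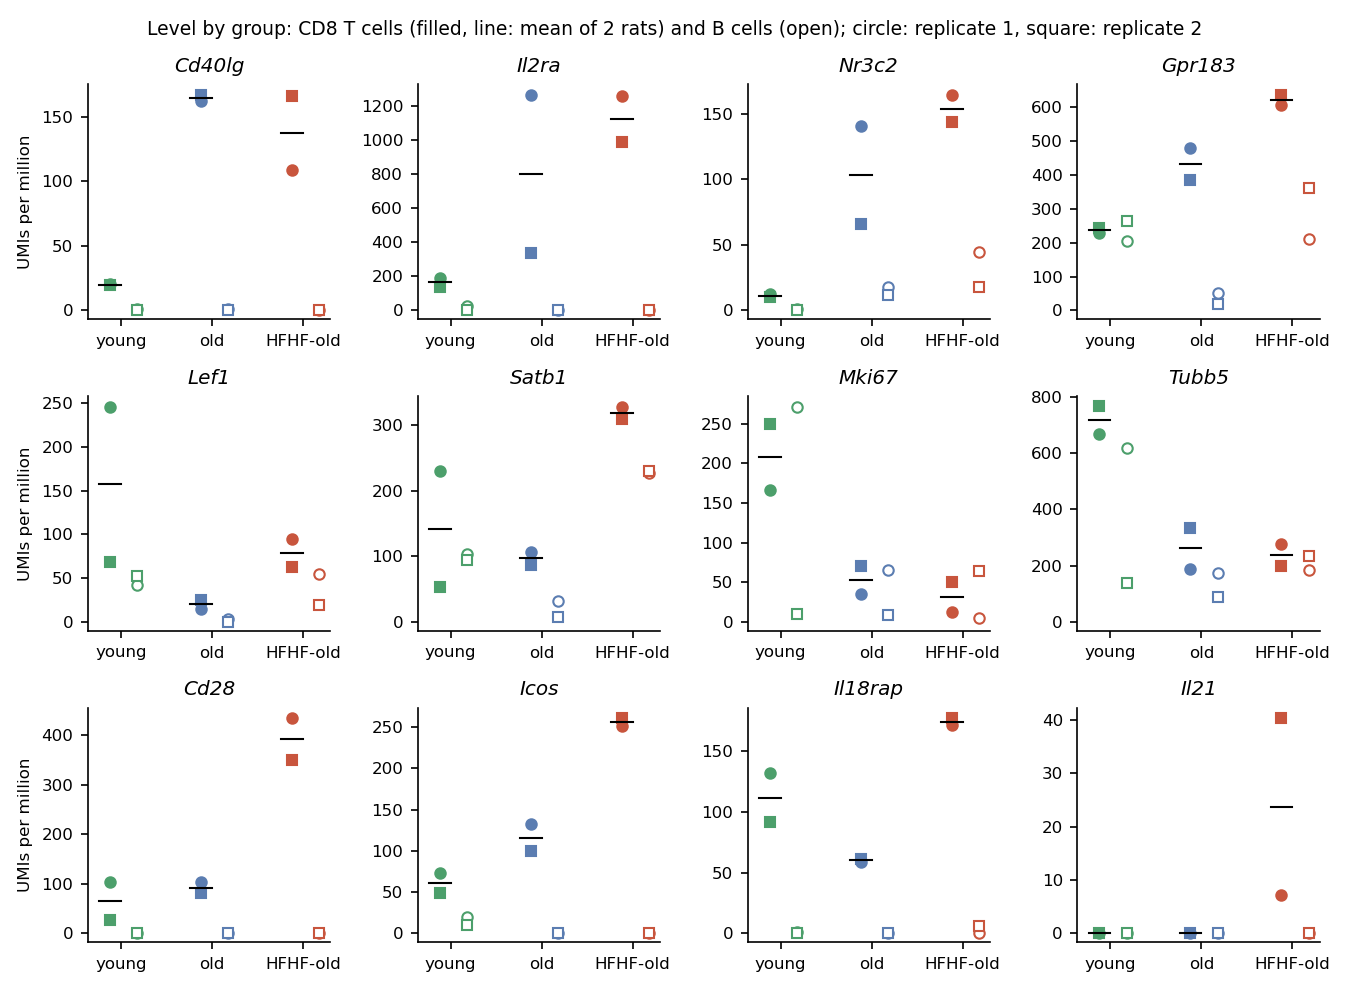
CPM of 12 genes in CD8 T cells (filled points) and B cells (open points), 1 point per rat, by group. Cd40lg lies at 19.7 and 20.3 CPM in the young and at 109 to 167 CPM in the older rats, and Cd28 at 351 and 435 CPM in the HFHF-old rats, without a gene called by edgeR.

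Proliferation genes stood below the young level in the old rats. All 14 tested were negative, 9 with unadjusted p under 0.05 and for 11 the groups did not overlap against 36.4% of all genes (median log2 fold change -1.24). The lists were chosen with earlier results of these data known, so such counts are descriptions and no tests. Mki67, a marker of cycling cells, stood at 166 and 249.5 CPM in the young, 35.4 and 70.0 CPM in the old and 12.1 and 49.9 CPM in the HFHF-old rats (log2 fold change -1.80, standard error 0.57, adjusted p = 0.495). Stmn1, a microtubule regulator, stood at 382 and 972 CPM in the young, 142 and 259 CPM in the old and 24.2 and 101 CPM in the HFHF-old rats (log2 fold change -1.59, standard error 0.67, adjusted p = 0.653). Tubb5, a tubulin, stood at 666 and 768 CPM in the young, 187 and 335 CPM in the old and 278 and 198 CPM in the HFHF-old rats (log2 fold change -1.31, standard error 0.38, adjusted p = 0.474), and Rrm2, which supplies DNA precursors, at 25.4 and 26.3 CPM in the young, 1.97 and 2.67 CPM in the old and 0 and 2.33 CPM in the HFHF-old rats (-3.30). In each of these both young rats were above both old rats, with young replicate 2 highest. Without young replicate 2 the proliferation list had 4 genes with unadjusted p under 0.05, 1 of 14 positive and a median of -0.95. In NK cells Mki67 stood at 136, 174, 102, 44.2, 153 and 118 CPM and in B cells at 272, 10.5, 65.6, 9.06, 5.53 and 64.7 CPM. The difference between the age contrasts of CD8 T and CD4 T cells was negative for all 13 proliferation genes tested (11 with unadjusted p under 0.05, median -2.89), with none called by edgeR and 24 and 15 CD4 T cells in the young rats.

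Immediate early and dissociation response genes were mostly above the young level, with 17 of 19 positive, 7 with unadjusted p under 0.05 and a median of 0.72. Fosb stood at 475 and 125 CPM in the young, 1171 and 683 CPM in the old and 1619 and 1625 CPM in the HFHF-old rats (log2 fold change 1.69, standard error 0.54, adjusted p = 0.496) and Jun at 278 and 187 CPM in the young, 792 and 377 CPM in the old and 942 and 939 CPM in the HFHF-old rats (log2 fold change 1.39, standard error 0.36, adjusted p = 0.410), both encoding AP-1 subunits. B cells showed the same order, with Fosb at 518, 263, 1063, 775, 1870 and 1742 CPM and Jun at 144, 189, 718, 443, 1012 and 951 CPM. Without young replicate 2, 13 of 19 immediate early and dissociation response genes were positive, 3 with unadjusted p under 0.05, and the median was 0.31.

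Killing genes were mostly below the young level. Of the cytotoxic granule and killing genes 2 of 13 were positive (3 with unadjusted p under 0.05, median -0.39), with Gzma at a log2 fold change of -5.58 and Gzmb at 55.8 and 82.1 CPM in the young, 2.95 and 20.5 CPM in the old and 7.25 and 16.6 CPM in the HFHF-old rats (-2.27). Gzma was highest by far in young replicate 2, the rat with the innate transcripts, as given earlier. Of 11 killer lectin-like receptors 1 was positive (median -0.41), and of the 8 NK marker genes 2 (median -1.99), with the innate transcripts of young replicate 2 moving in the same direction. Their part in these differences was not tested. When a Cd8b UMI was required, 7 of 10 killer lectin-like receptors were positive (median 0.26). Fcrl6, an Fc receptor-like gene of cytotoxic cells, stood at 24.1 and 59.1 CPM in the young and had no UMI in the old rats, which made it at least 89.3-fold lower against a floor of 3 UMIs over the group (37 UMIs in the young). Without young replicate 1 the bound was 156-fold, and without young replicate 2 it was 63.6-fold.

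Of the effector cytokines and chemokines 9 of 15 were positive (2 with unadjusted p under 0.05, median 0.22). Without Il21, which had no UMI in either group, and with Il17a, which had none in the young, at its bound, the median of the 14 genes left was 0.49. Of the tissue residence genes 9 of 14 were positive (5 with unadjusted p under 0.05, median 0.33). Of the cytokine receptors 9 of 17 were positive (median 0.01) and of the interferon response genes 13 of 17 (median 0.17).

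Further genes of smallest p in the age comparison were RT1-Bb, an MHC class II beta chain whose reads may be split with related RT1 genes (15.2 and 0 CPM in the young, 329.5 and 475 CPM in the old and 12.1 and 6.16 CPM in the HFHF-old rats), and Slpi, a protease inhibitor of epithelia (1.27 and 13.1 CPM in the young, 343 and 552 CPM in the old and 14.5 and 51.7 CPM in the HFHF-old rats). Both were high in the old rats alone, also in NK cells, at 244 and 199.5 CPM and 177 and 176 CPM in the old against 5.07 and 3.75 CPM and 0.494 and 51.8 CPM in the young. Slpi turned to a log2 fold change of -0.64 without the CD8 T cells that carried innate transcripts. AC127784.2 had no UMI in the young rats and 204 in the old, at least 9.39-fold higher against 3 UMIs, and was at 0 and 0 CPM in the NK cells of the young and 35.9 and 19.6 CPM of the old. Lower in the old were the matrix genes Sparc (351 and 355 CPM in the young, 59.6 and 39.2 CPM in the old and 29.0 and 10.8 CPM in the HFHF-old rats) and Fbn1 (791 and 374 CPM in the young, 107 and 58.5 CPM in the old and 104 and 56.5 CPM in the HFHF-old rats), the convertase gene Pcsk6 (88.8 and 72.2 CPM in the young, 22.6 and 12.3 CPM in the old and 4.83 and 5.34 CPM in the HFHF-old rats) and Cers6, a ceramide synthase (98.9 and 128 CPM in the young, 34.1 and 22.0 CPM in the old and 33.8 and 25.4 CPM in the HFHF-old rats). Without the CD8 T cells that carried dendritic transcripts, 4 and 3 in the young and 17 and 36 in the old rats, Sparc, Fbn1 and Pcsk6 turned to log2 fold changes of 0.32, 0.11 and 0.70. Of the 7 stromal and endothelial markers tested for age 2 were positive (median -2.05), of the 14 pancreatic secretory markers 12 (median 1.37) and of the 6 MHC class II genes all (median 2.43). The part of transcripts from other cells in the age differences was not tested beyond these values.

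HFHF-old and old rats were compared in the same fit, which concerns the diet at 1 age. No gene of 10228 tested was called by edgeR (smallest adjusted p = 0.177), 1153 (11.3%) had an unadjusted p under 0.05, 4.14% above and 7.14% below the old level, and DESeq2 called 32. For 51.0% of all genes the groups did not overlap. HFHF-old replicate 1 entered with 64 cells against 847 in replicate 2. Without old replicate 1, 95 genes were called. This comparison shares the old rats with that of age, so that a high or low old rat moves both. The counts of the gene lists are descriptions here as well.

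Cd28 and Icos stood above the old level in both HFHF-old rats, without being called. Cd28 stood at 104 and 26.3 CPM in the young, 104 and 80.7 CPM in the old and 435 and 351 CPM in the HFHF-old rats (log2 fold change 1.96, standard error 0.46, adjusted p = 0.347), and Icos, a related costimulator, at 73.5 and 49.2 CPM in the young, 133 and 99.4 CPM in the old and 251 and 261 CPM in the HFHF-old rats (log2 fold change 1.03, standard error 0.26, adjusted p = 0.355). CD4 T cells held Cd28 at 224, 66.6, 273, 243, 1158 and 1067 CPM and NK cells at 63.0, 13.3, 38.8, 38.0, 143 and 108 CPM, in each kind highest in the HFHF-old rats, while B cells were at 0 to 0.925 CPM. Of the T cell receptor signalling genes 18 of 20 tested were positive, 2 with unadjusted p under 0.05, and for 14 the groups did not overlap against 51.0% of all genes (median 0.41 beside -0.02 over all genes). Of 15 naive and circulating T cell genes 11 were positive, 5 with unadjusted p under 0.05 (median 1.02). Satb1, a chromatin organizer, stood at 229.5 and 52.5 CPM in the young, 107 and 86.9 CPM in the old and 329 and 309 CPM in the HFHF-old rats (log2 fold change 1.60, standard error 0.52, adjusted p = 0.419), and Bach2, a repressor that restrains effector genes, at 126 and 36.1 CPM in the young, 34.7 and 33.3 CPM in the old and 133 and 91.0 CPM in the HFHF-old rats (log2 fold change 1.54, standard error 0.45, adjusted p = 0.410). B cells held far more Bach2 than CD8 T cells and were likewise higher in the HFHF-old than in the old rats (1811, 872, 254, 58.4, 1189 and 1410 CPM). Lef1, given for age, had a log2 fold change of 1.74 here.

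Cytokine receptors were positive in 16 of 17 tested (4 with unadjusted p under 0.05, median 0.42). Il18rap, the accessory chain of the interleukin 18 receptor, stood at 132 and 91.9 CPM in the young, 59.0 and 61.4 CPM in the old and 172 and 177 CPM in the HFHF-old rats (log2 fold change 1.40, standard error 0.27, adjusted p = 0.318), and NK cells were likewise highest in the HFHF-old rats with 203, 193, 171, 201, 383 and 313 CPM. Of 19 transcription factors 15 were positive (5 with unadjusted p under 0.05, median 0.63). Tbx21 stood at 231 and 125 CPM in the young, 129 and 116 CPM in the old and 246 and 304 CPM in the HFHF-old rats (log2 fold change 1.06, standard error 0.33, adjusted p = 0.418) and Eomes at 3.80 and 9.85 CPM in the young, 1.64 and 1.23 CPM in the old and 7.25 and 8.35 CPM in the HFHF-old rats (log2 fold change 2.35, standard error 0.72, adjusted p = 0.416). Both T-box factors were thus higher in the HFHF-old rats than in either old rat, but Eomes rests on few UMIs. In HFHF-old replicate 1 its 7.25 CPM is the level that 3 UMIs gave Il21 in that rat (below). Klrc1, the NKG2A receptor, stood at 34.2 and 19.7 CPM in the young, 24.6 and 22.0 CPM in the old and 43.5 and 67.9 CPM in the HFHF-old rats (1.22). Il21, a cytokine of helper T cells, had no UMI in the CD8 T cells of the young and old rats and 298 in those of the HFHF-old rats (7.25 and 40.4 CPM), at least 102-fold higher than in the old rats against a floor of 3 UMIs over the group. Of these, 295 came from HFHF-old replicate 2, and the 3 UMIs left without it equal the floor and give no bound. In NK cells of the HFHF-old rats it stood at 0 and 0.335 CPM and in their CD4 T cells at 45.1 and 52.1 CPM. 

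The genes of smallest p above the old level were Prkag2, a subunit of the energy sensor AMPK (58.3 and 36.1 CPM in the young, 50.5 and 31.8 CPM in the old and 198 and 156 CPM in the HFHF-old rats, log2 fold change 1.98, standard error 0.30, adjusted p = 0.252), Mid2, a ubiquitin ligase (12.7 and 3.28 CPM in the young, 11.1 and 20.7 CPM in the old and 121 and 96.3 CPM in the HFHF-old rats, log2 fold change 2.56, standard error 0.43, adjusted p = 0.265), and Hexim1, an inhibitor of transcription elongation (31.7 and 23.0 CPM in the young, 31.1 and 21.2 CPM in the old and 82.1 and 72.9 CPM in the HFHF-old rats, log2 fold change 1.45, standard error 0.27, adjusted p = 0.292). They stood above the old level also in NK cells, for Mid2 at 57.6 and 52.6 CPM in the old and 185 and 156 CPM in the HFHF-old rats, and in B cells, for Mid2 at 33.3 and 25.2 CPM and 94.0 and 94.1 CPM. Galnt3, a glycosyltransferase, stood at 2.54 and 3.28 CPM in the young, 1.97 and 2.26 CPM in the old and 19.3 and 16.8 CPM in the HFHF-old rats (log2 fold change 2.90, standard error 0.54, adjusted p = 0.292).

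Interferon response genes leaned the other way. Of 17 tested 5 were positive, 6 had an unadjusted p under 0.05 and the median was -0.61, but without HFHF-old replicate 2, 8 of 16 interferon response genes were positive and the median was -0.03. Isg15, a ubiquitin-like protein induced by interferon, stood at 30.4 and 29.6 CPM in the young, 52.1 and 87.3 CPM in the old and 31.4 and 27.9 CPM in the HFHF-old rats (log2 fold change -1.42, standard error 0.36, adjusted p = 0.355), Isg20 at 33.0 and 32.8 CPM in the young, 45.5 and 60.6 CPM in the old and 24.2 and 21.5 CPM in the HFHF-old rats (log2 fold change -1.39, standard error 0.31, adjusted p = 0.343) and Irf7 at 44.4 and 46.0 CPM in the young, 78.6 and 50.7 CPM in the old and 43.5 and 22.0 CPM in the HFHF-old rats (log2 fold change -1.28, standard error 0.35, adjusted p = 0.378). NK cells showed Isg15 at 32.4, 45.3, 34.9, 45.9, 20.1 and 14.7 CPM. Proliferation genes were all negative again (14 tested, 2 with unadjusted p under 0.05, median -0.54), but the groups did not overlap for 6, or 42.9%, against 51.0% of all genes, and overlapped for Mki67 and Tubb5. Stmn1 was at a log2 fold change of -1.67. Of the antioxidant and oxidative stress response genes 5 of 20 were positive (3 with unadjusted p under 0.05, median -0.29), Gpx1, a peroxidase, being at 212 and 171 CPM in the young, 228 and 357 CPM in the old and 176 and 177 CPM in the HFHF-old rats (-0.88) and Prdx5, a peroxiredoxin, at 82.4 and 112 CPM in the young, 124 and 116 CPM in the old and 31.4 and 87.4 CPM in the HFHF-old rats (-0.98). Of 13 genes for inhibitory receptors and Tox 5 were positive (median -0.53), and without old replicate 1 the inhibitory receptors and Tox list had 7 of 12 positive with a median of 0.36.

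Of the cytotoxic granule and killing genes 10 of 13 were positive (1 with unadjusted p under 0.05, median 0.17), of the effector cytokines and chemokines 11 of 15 (2, median 0.28) and of the tissue residence genes 12 of 14 (3, median 0.47). The groups did not overlap for 2, 6 and 8 genes of these lists, against 51.0% of all genes.

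Several genes below the old level are best known from other cell types. RT1-Bb had a log2 fold change of -5.93 and all 6 MHC class II genes tested were negative (5 with unadjusted p under 0.05, median -3.07). Without the cells that carried innate transcripts the MHC class II and Cd74 list had 1 of 5 positive and a median of -0.41. AABR07060872.1 stood at 19.0 and 6.57 CPM in the young, 1849 and 9601 CPM in the old and 62.8 and 13.5 CPM in the HFHF-old rats in CD8 T cells and at 5484 to 447400 CPM in B cells. Mgp (2.54 and 3.28 CPM in the young, 60.6 and 84.6 CPM in the old and 9.66 and 2.74 CPM in the HFHF-old rats) and Igfbp7 (33.0 and 49.2 CPM in the young, 80.3 and 64.7 CPM in the old and 16.9 and 7.25 CPM in the HFHF-old rats), genes of stromal cells, and Cebpd (30.4 and 19.7 CPM in the young, 34.7 and 41.9 CPM in the old and 7.25 and 5.75 CPM in the HFHF-old rats) were also among those of smallest p. The 14 secretory genes had a median of -2.24 on the log2 scale and the 7 stromal genes one of -1.90. The median level of the secretory genes was 170 and 197 CPM in the old and 233 and 25.4 CPM in the HFHF-old rats, lowest in HFHF-old replicate 2. The part of transcripts from other cells in these differences was not tested.

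**Figure D4:**
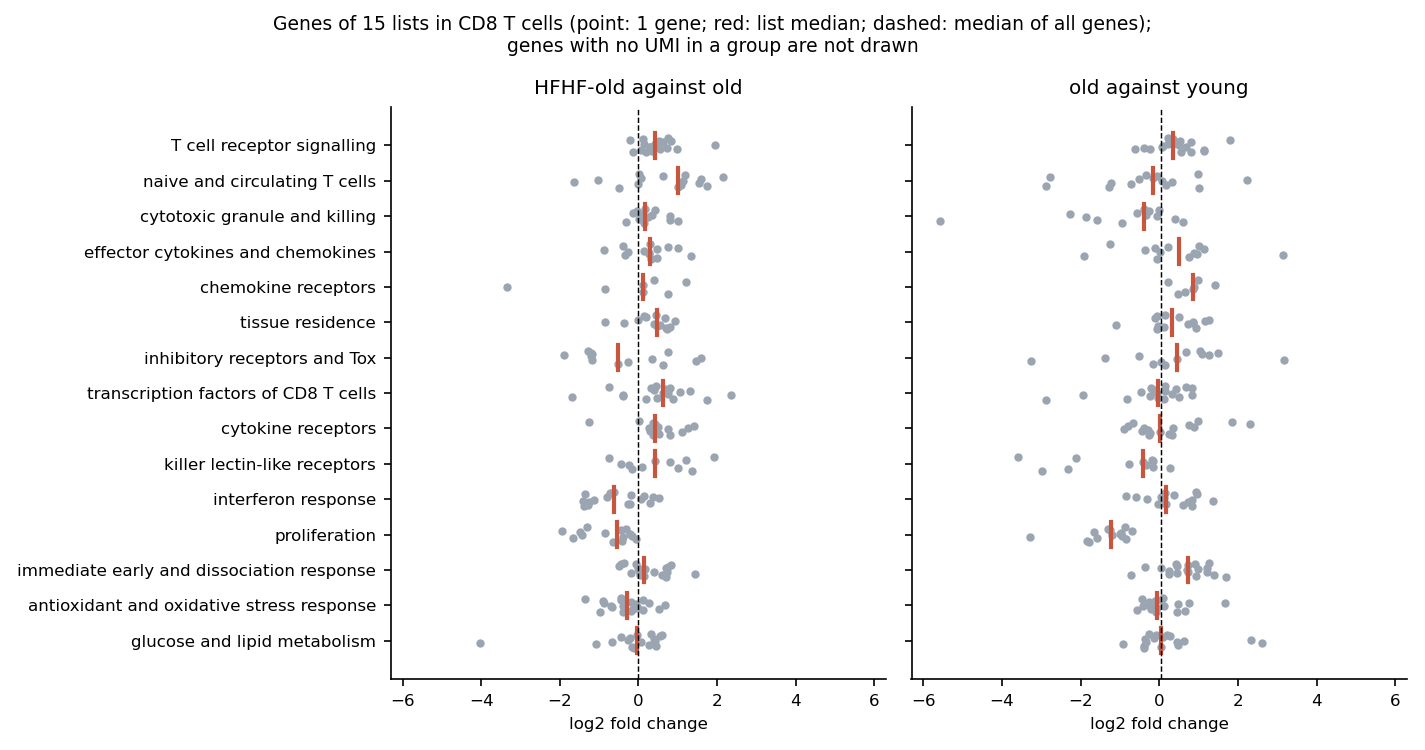
Log2 fold changes of the genes of 15 lists in CD8 T cells for HFHF-old against old and old against young, with the median of each list, genes without a UMI in either group left out and those without a UMI in one group at their bound, and of all genes (dashed). Proliferation genes lie below 0 in both comparisons (median -0.54 and -1.24) and no gene was called by edgeR.

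Cells were finally counted by effector genes (at least 1 UMI of Ccl5, Gzmk, Gzmb or Prf1) after each was thinned to 1000 UMIs, which left out 4, 16 and 4 cells of old replicates 1 and 2 and HFHF-old replicate 2. Effector genes were read in 63.7% and 60.0% of CD8 T cells in the young (exact 95% binomial intervals 54.1 to 72.6 and 42.1 to 76.1), 80.6% and 75.5% in the old (76.2 to 84.6 and 72.8 to 78.1) and 46.9% and 57.9% in the HFHF-old rats (34.3 to 59.8 and 54.5 to 61.3). The 3 pairs of rats did not overlap, with the old highest and the HFHF-old lowest, although the intervals of young and HFHF-old rats overlapped. Without thinning the values were 87.6% and 77.1%, 94.0% and 84.9%, and 79.7% and 86.8%, and the pairs then overlapped. B cells, which do not make these genes, held them in 0% to 7.14% of thinned cells. The order of the groups thus turned on the thinning. Of the 4 genes, Ccl5 was lower and Prf1 higher in both HFHF-old rats than in either old rat. For HFHF-old against old, 10 of 13 killing genes and 11 of 15 effector cytokines and chemokines tested had a positive log2 fold change. The groups did not overlap for only 2 of these killing genes and 6 of these cytokines and chemokines, against 51.0% of all genes. These lists thus give no clear direction, and the share counted here is a description of its 4 genes only.

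**Figure D5:**
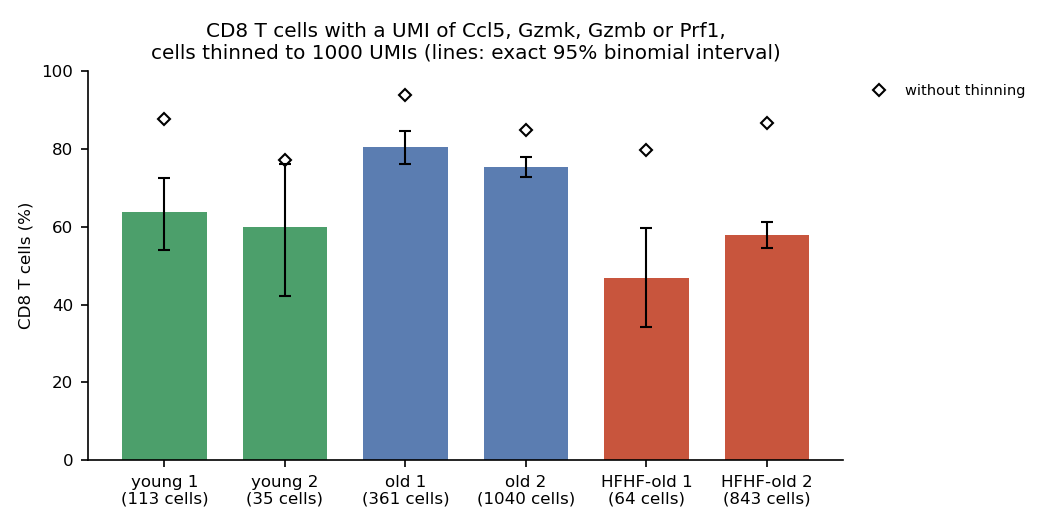
Percent of CD8 T cells of each rat with at least 1 UMI of Ccl5, Gzmk, Gzmb or Prf1 after thinning to 1000 UMIs (bars, with exact 95% binomial intervals as lines) and without thinning (diamonds). The bars stand at 80.6% and 75.5% in the old, 63.7% and 60.0% in the young and 46.9% and 57.9% in the HFHF-old rats, and the diamonds of the 3 groups overlap.

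The difference between the diet contrasts of CD8 T and CD4 T cells was tested for 8249 genes. Of these 1 (0.0121%) was called and 4.23% had an unadjusted p under 0.05 (2.42% above 0, 1.81% below). For old against young the difference between the 2 kinds of cell was called for no gene by edgeR, with 648 (7.86%) at an unadjusted p under 0.05, of which 257 (3.12%) were above 0 and 391 (4.74%) below, while DESeq2 called 4.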

How the data were processed

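Single-cell RNA sequencing of islet-enriched pancreatic cells from 6 male Wistar rats (young, old and HFHF-old, 2 each) was analysed from the deposited matrices of UMI counts per gene and barcode. Per the labels and the study's methods, the authors made these counts with Cell Ranger on droplet 3′ libraries, and the submitters' processing notes name Rnor 6.0 as the genome. The file headers and the methods name different Cell Ranger releases. The values were whole-number counts without normalization, before any doublet or ambient RNA removal known from these sources.

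Barcodes with at least 200 genes and at most 25% mitochondrial UMIs were kept (75981 of 78024). Of the rest, 848 had too few genes and 1578 too many mitochondrial UMIs, some both. No doublet caller was run, and cells with at least 2 UMIs of other cell types' markers (169 CD8 T cells) were left out in an alternative. CD8 T, CD4 T and NK cells were gated by UMIs, and counts were summed per rat and kind (at least 10 cells). CD8 T cells of the 3 groups were fitted together with edgeR's quasi-likelihood test (4.0.16, R 4.3.3), TMM scaling and its low-count filter. CD8 T cells were set against CD4 T or NK cells with the rat as a block. Genes were called at an adjusted p under 0.05 (Benjamini-Hochberg over all genes tested) and a fold over 1.5. DESeq2 (1.42.0), other gates, filters and rats left out were alternatives, of which those without secretory, innate or dendritic transcripts and the newer quasi-likelihood method were chosen after seeing the data. Shares were compared by two-sided exact permutation tests (scipy 1.17.1, Python 3.11.15) with exact Clopper-Pearson intervals, which cover counting error only. The scripts were tested on simulated data. For HFHF-old against old, 0 of 49 genes changed 2-fold and 30 of 48 changed 4-fold were called there. Of the unchanged genes 13 were called. A group comparison without a called gene thus does not show that levels were alike.

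Named genes were, per comparison, up to 10 in each direction of smallest p among genes called with groups or pairs that did not overlap, or, where fewer were called, up to 5 in each direction of smallest p marked as not called, and members of the gene lists. The members and lists were chosen with earlier results of these data known. Some genes are not reported here. Replicates are separate rats. Promoter sequences came from RefSeq (GRCr8), another build than that of the counts, and were matched by symbol.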

Additional observations from a re-analysis of the deposited data

How the results depend on the processing

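For HFHF-old against old CD8 T cells (0 by edgeR, 1153 at an unadjusted p under 0.05) DESeq2 gave 32, no filter 546, the replicate block 2 and the Cd8b gate 2. For old against young (0, with 767 unadjusted) DESeq2 gave 55, no filter 291 and leaving out cells with innate transcripts 2. For CD8 T against CD4 T (445) no filter gave 1207, no replicate block 240, and leaving out marker doublets, innate or dendritic transcripts 293, 206 and 233. For CD8 T against NK (1466) no replicate block gave 955. For the diet difference between CD8 T and CD4 T (1) DESeq2 gave 2, no filter 98, the newer quasi-likelihood method, the Cd8b gate and 3 Cd3 UMIs 0 each, the top 1% left out 3, marker doublets 2 and dendritic transcripts 4. For the age difference (0) DESeq2 gave 4, no filter 150, marker doublets 19, secretory UMIs 5, innate transcripts 1 and dendritic transcripts 20. The causes were not tested.

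Leaving out each rat gave 0 to 95 genes for the diet (95 without old replicate 1), 0 to 11 for age (11 without old replicate 1), 208 to 485 against CD4 T (208 without old replicate 1), 1172 to 1595 against NK, 0 to 52 for the diet difference (52 without old replicate 2) and 0 to 158 for the age difference (158 without old replicate 1). A lone rat was then assumed to vary like the other groups. The share of cells kept differed by -5.14 to 1.56 points for diet and 4.39 to 5.94 for age, and that of Cd3 cells by -35.1 to 10.8 and 15.1 to 38.8. The Cd8b gate turned the diet differences to 0.00195 and 1.11 points. Without innate and dendritic transcripts the log2 difference against CD4 T turned to 0.10 and 0.51 for Tyrobp, 0.16 and 0.13 for Lyz2 (0.092 without marker doublets), 0.66 and 0.84 for Cd74, 0.36 and 0.54 for RT1-Ba and 0.79 and 1.09 for RT1-Da. The innate setting leaves cells out by Tyrobp itself, with Fcer1g and Klrb1a, so its 0.10 for Tyrobp is partly set by the filter. Without dendritic transcripts it turned to 0.15 for Irf8 and 0.021 for Slc2a1, and for old against young to 0.70 for Pcsk6, 0.11 for Fbn1 and 0.32 for Sparc. Without innate transcripts Slpi turned to -0.64 for age, and RT1-Bb and RT1-Ba to -2.16 and -1.29 against NK. The innate and dendritic settings left cells out of the CD8 T and CD4 T sets only. Against NK, filtered CD8 T cells were thus set beside unfiltered NK cells. The settings without marker doublets, innate or dendritic transcripts also left young replicate 2 without a CD4 T sum.

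Replicate numbers did not pair the rats across groups (correlations of deviations 0.0896, 0.0254 and -0.00599). Of 1193 gene and alternative pairs against CD4 T 1003 kept their direction and call, and against NK 2145 of 2318. The planned older quasi-likelihood method is the default of the edgeR version used, so it is the main fit itself and not a separate check. The rats with 35 and 64 CD8 T cells held the fewest summed UMIs (304620 and 413956).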
